A study of Mus musculus with 12 samples.

Results

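Carried-over sensory ganglion is a recurrent concern when the embryonic spinal cord is dissected, because a dorsal root ganglion (DRG) lies against the cord at each segment. The libraries were therefore read for 6 genes listed as DRG genes, *Avil*, *P2rx3*, *Runx3*, *Pou4f2*, *Eya2* and *Drgx*, which were taken by NCBI Gene ID from a table of 45777 gene identifiers. All 6 were found, and *Drgx* stands in the RefSeq annotation under the older symbol *Prrxl1*. The 12 libraries held total RNA of ventral spinal cord at E12.5, a dissection that leaves dorsal cord and ganglia behind where it is complete, cut around the *Hb9::GFP* reporter, a transgene in which the promoter of the MN gene Hb9 drives GFP. They formed 4 groups of 3 libraries, brachial *Isl2* +/- (Het), brachial *Isl2* -/- (KO), lumbar *Isl2* +/- and lumbar *Isl2* -/-, so every group lacked at least 1 copy of *Isl2* and no wild-type or ganglion library was measured. The KO came from a germline null line described earlier, so the gene was lost in every cell of the embryo.

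The DRG houses the cell bodies of the neurons that carry touch, pain, temperature and muscle stretch to the spinal cord, and these neurons arise from the neural crest, not from the neural tube. Some genes used to recognise them are made by few other neurons, such as those encoding the ATP-gated channel *P2rx3* and the actin-binding protein *Avil* (advillin). Others encode transcription factors that neurons of the dorsal spinal cord also use, among them *Drgx* and several Pou4f genes, so that a transcript of this second kind can come from the cord itself.

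The libraries held between 4.48 and 6.64 Gb of aligned bases and 22983 to 24191 genes above 0. *Isl2*, the gene removed, was at 8.89 ± 0.713 TPM (a transcript level scaled to gene length and library total, here rescaled between libraries; SD, n = 3) in brachial Het and 5.91 ± 1.40 in brachial KO libraries, and at 9.36 ± 0.937 in lumbar Het and 7.34 ± 0.850 in lumbar KO libraries. The genotypes did not overlap at either level on this scale and the KO libraries were the lower, although reads over the *Isl2* gene remained in all of them. In TPM as deposited, brachial KO 2 (9.08) lay above all 3 brachial Het libraries (8.61 to 9.04). The log2 difference was −0.61 at the brachial level (limma adjusted p = 0.357) and −0.35 at the lumbar level (0.999), and the brachial one passed the threshold of the study, a log2 difference beyond 0.5 with an unadjusted p under 0.05. The brachial call was lost in deposited TPM (log2 difference −0.43) and without brachial KO 3 (−0.42). With mean per-base coverage in place of TPM, the lumbar difference was −0.72 and passed that threshold (limma unadjusted p = 0.0159). The MN gene *Mnx1*, which encodes Hb9, ranged from 37.4 to 66.9 TPM over the libraries. Of 8 MN genes 0 passed that threshold at either level, against 3.08% (brachial) and 1.77% (lumbar) of all genes, with 5 higher and 3 lower KO estimates at the brachial level (median log2 difference 0.07) and all 8 lower at the lumbar level (median −0.28). The genotypes stood apart for 3 of the 8 at the brachial level, against 20.1% of all genes, and for 2 at the lumbar level, against 9.94%. Up to 2 of the 8 passed at the lumbar level when a single library was left out. The part of MN content in the member values was not tested. Of 10 genes of muscle and mesenchyme 8 averaged below 0.5 TPM, among them *Myod1*, listed at 0 in all libraries, and the muscle actin *Actc1*, above 0 in 8, while the collagen genes *Col1a2* and *Col2a1* averaged 1.28 and 37.5 TPM.

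The members fell into 2 sets by level. *Pou4f2* averaged 6.12 ± 1.35 TPM (SD, n = 12), *Eya2* 5.57 ± 1.44 and *Drgx* 4.49 ± 1.76. *P2rx3* averaged 0.745 ± 0.234 TPM, *Avil* 0.516 ± 0.166, and *Runx3* was listed at 0 in all 12 libraries. The ranges of *Drgx* and *P2rx3* did not overlap, since the lowest *Drgx* value was 1.84 TPM and the highest *P2rx3* value 1.27 TPM. Neighbours among the 5 members above 0 were not separated by their spread within a set. *Pou4f2* exceeded *Eya2* in 7 of 12 libraries, *Eya2* exceeded *Drgx* in 10, and *P2rx3* exceeded *Avil* in 9, and the ranges overlapped in each of these pairs. Among 21769 protein-coding genes, 55.7% had a lower mean than *Pou4f2*, 54.7% than *Eya2* and 52.5% than *Drgx*, against 41.0% for *P2rx3* and 39.2% for *Avil*. In bulk RNA a smaller number of ganglion cells and less RNA per cell cannot be told apart.

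**Figure D1:**
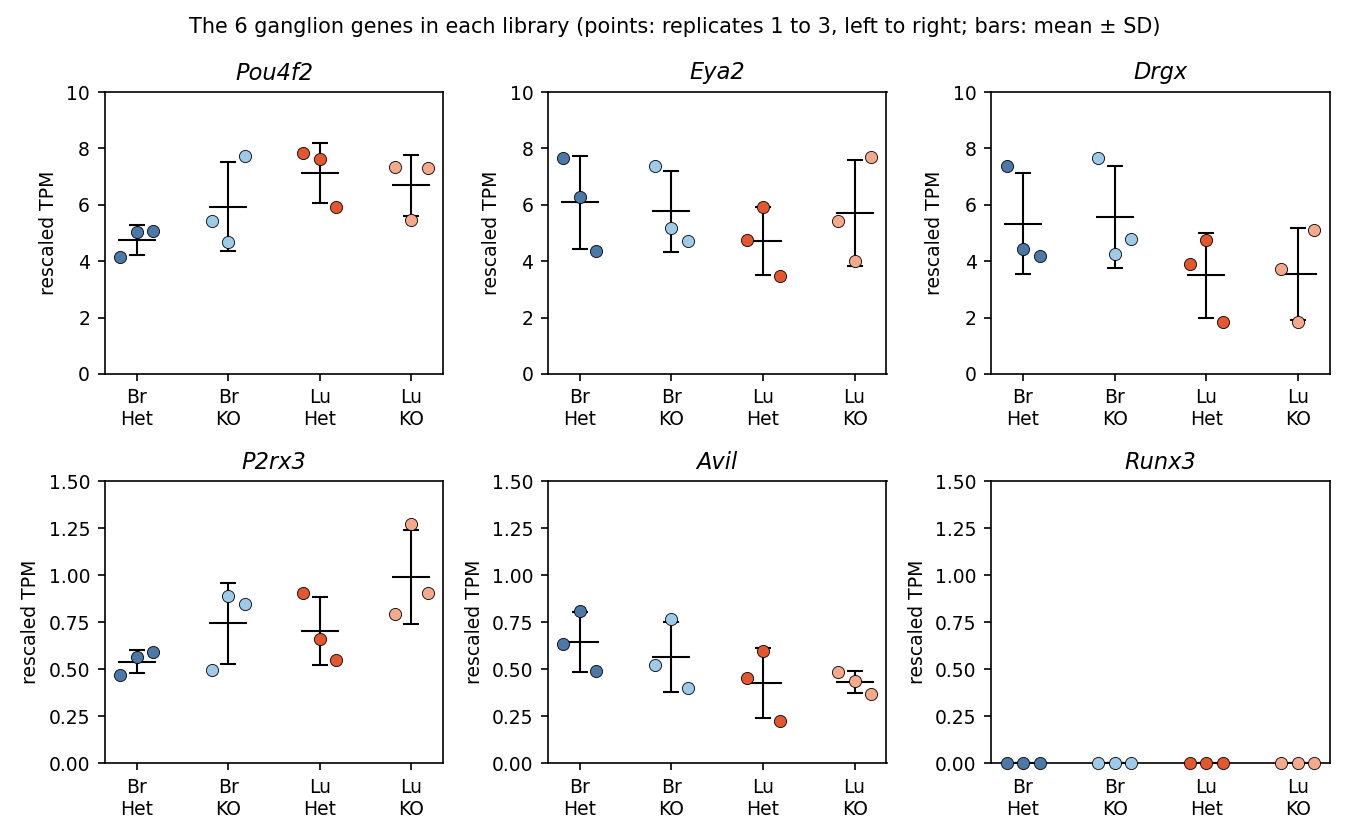
Rescaled TPM of the 6 ganglion genes in each library, with points for replicates 1 to 3 of brachial (Br) and lumbar (Lu) Het and KO groups and bars for the mean ± SD of 3 libraries. The vertical axis ends at 10 TPM for *Pou4f2*, *Eya2* and *Drgx* and at 1.5 TPM for *P2rx3*, *Avil* and *Runx3*, and *Runx3* lies at 0 in all 12 libraries.

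*Runx3* encodes the transcription factor on which proprioceptive sensory neurons depend. Its value of 0 covered the annotated gene on chromosome 4 (mm10, 135120645 to 135177990, plus strand). A listed 0 can be a failed estimate, but of 10 genes that every cell uses none was at 0 in any library, and the lowest value among them was 16.9 TPM. Of 77 ribosomal protein genes, however, 3 were at 0 in at least 1 library, 2 of them in all 12, so whether the 0 of *Runx3* is such a failure was not tested. No fold or test was possible for *Runx3*.

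*Avil* encodes a protein that bundles actin in sensory neurites (chromosome 10, 127000065 to 127020994, plus strand). Its TPM was 0.632, 0.811 and 0.491 in brachial Het libraries 1 to 3 and 0.522, 0.769 and 0.401 in brachial KO libraries. At the lumbar level it was 0.455, 0.598 and 0.225 in Het and 0.487, 0.439 and 0.368 in KO libraries. Brachial Het 2 was the highest and lumbar Het 3 the lowest of the 12, a ratio of 3.60. KO and Het libraries overlapped at each level. These values rest on few reads, between 0.676 and 2.35 reads over an average base of the transcript.

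*P2rx3* encodes the channel by which nociceptors sense extracellular ATP (chromosome 2, 84996549 to 85037108, minus strand). It stood at 0.470, 0.563 and 0.590 TPM in brachial Het and at 0.494, 0.889 and 0.848 in brachial KO libraries. The lumbar values were 0.904, 0.659 and 0.549 in Het and 0.794, 1.27 and 0.903 in KO libraries. Lumbar KO 2 held the highest value and brachial Het 1 the lowest, and KO and Het libraries overlapped at both levels. The read depth behind *P2rx3* was 1.46 to 4.02 reads per base.

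*Pou4f2* (Brn3b) encodes a POU-homeodomain factor of sensory neurons and retinal ganglion cells (chromosome 8, 78433009 to 78436647, minus strand). Its TPM was 4.13, 5.04 and 5.06 in brachial Het and 5.41, 4.68 and 7.71 in brachial KO libraries. It was 7.84, 7.62 and 5.91 in lumbar Het and 7.34, 5.44 and 7.30 in lumbar KO libraries. Most lumbar libraries lay above most brachial ones, and brachial KO 3 lay among the lumbar values.

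*Eya2* encodes a phosphatase and coactivator at work in placode and ganglion development (chromosome 2, 165595028 to 165771727, plus strand). It was measured at 7.65, 6.26 and 4.36 TPM in brachial Het and at 7.39, 5.17 and 4.73 in brachial KO libraries. The lumbar values were 4.75, 5.92 and 3.47 in Het and 5.44, 3.997 and 7.71 in KO libraries. High and low libraries occurred in nearly every group, and all 4 groups overlapped.

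*Drgx* (Drg11, *Prrxl1*) encodes a paired-like homeodomain factor of nociceptors and of their target neurons in the dorsal horn (chromosome 14, 32595867 to 32649246, plus strand). Brachial Het libraries held 7.38, 4.43 and 4.20 TPM and brachial KO libraries 7.65, 4.26 and 4.80. Lumbar Het libraries held 3.91, 4.75 and 1.84 TPM and lumbar KO libraries 3.72, 1.84 and 5.10. Replicate 1 of both brachial groups stood far above the other 4 brachial libraries, and lumbar Het 3 and lumbar KO 2 far below the other 4 lumbar libraries. *Drgx* thus spread the most of the members, with a ratio of 4.16 between the highest and the lowest library and a coefficient of variation of 39.2%, against 22.0% to 32.1% for the other 4 measurable members.

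Summed over the members, the level was 17.4 ± 2.79 TPM in brachial Het, 18.6 ± 2.85 in brachial KO, 16.5 ± 3.96 in lumbar Het and 17.4 ± 4.20 in lumbar KO libraries (SD, n = 3). The sum was carried by *Pou4f2*, *Eya2* and *Drgx*. *Avil*, *P2rx3* and *Runx3* together made up 4.73% to 13.2% of it in single libraries, and summed to 1.19 ± 0.163, 1.31 ± 0.325, 1.13 ± 0.312 and 1.42 ± 0.251 TPM in the same 4 groups. With no ganglion library to scale by, neither sum was converted into a share of ganglion tissue.

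The label of the 6 genes was then checked against a wider list of sensory ganglion genes, 30 beyond the members. Of these, 11 averaged below 0.5 TPM and 7 of the 11 below 0.1 TPM. *Scn10a*, the sodium channel of nociceptors, and *Mrgprd*, a receptor of nonpeptidergic nociceptors, were listed at 0 in all libraries, as *Runx3* was and with the same limit on what a listed 0 shows. Others below 0.1 TPM, singled out after their values were seen, included the channel genes *Trpv1*, *Trpm8* and *Scn11a* and the factor *Hmx1*, among which the highest single value was 0.145 TPM. No E12.5 ganglion was measured, so whether ganglia of this stage make these low or absent genes was not tested. The list also held sensory genes well above these, such as the sodium channel gene *Scn9a* at 11.8 to 18.7 TPM and, at lower means, the ATP-gated channel gene *P2rx2* (1.95 TPM), *Piezo2* (1.58) and the nociceptor factor *Prdm12* (1.02). Genes of the list that MNs or other spinal neurons also make included *Isl1* at 56.6 ± 7.81 TPM (SD, n = 12), *Ret* at 19.5 ± 3.92 and *Pou4f1* at 13.2 ± 2.23. Among genes of Schwann cells, which line ganglia and nerves, *Cdh19* was above 0 in 8 of 12 libraries and reached 0.0962 TPM at most, and *Sox10* of crest and glia ranged from 0.0922 to 1.95 TPM. Other genes of the Schwann and crest list were higher, up to *Fabp7* of radial glia at 1158 to 2308 TPM, so the list as a whole was not particular to ganglia. *P2rx3* and *Avil* were above 0 in all 12 libraries. Whether transcripts of the members came from ganglion or from cord was not tested.

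**Figure D2:**
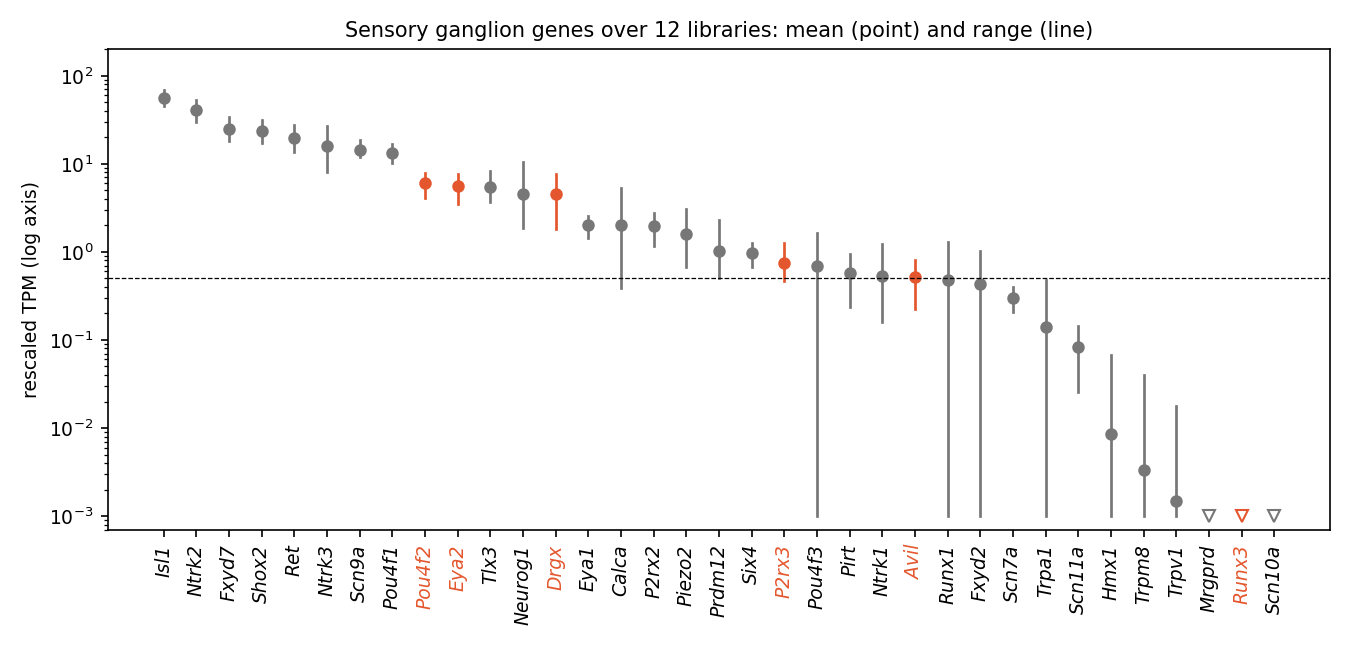
Rescaled TPM, on a log axis, of sensory ganglion genes over the 12 libraries, ordered by mean. Points are means and lines run from the lowest to the highest library, lines that reach the floor of the axis end at a library listed at 0, open triangles mark genes listed at 0 in all libraries, red marks the 6 members, and the dashed line is the filter at a mean of 0.5 TPM. The means of *Pou4f2*, *Eya2* and *Drgx* lie above 1 TPM and those of *P2rx3*, *Avil* and *Runx3* below it.

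Loss of *Isl2* was compared first, since it asks whether the genotypes held the ganglion genes unequally. Because the KO was germline, unequal carried-over ganglion and an effect of *Isl2* loss on these genes could not be told apart. At the brachial level, log2 differences of KO from Het were 0.36 ± 0.33 (SE) for *P2rx3*, 0.29 ± 0.20 for *Pou4f2*, 0.06 ± 0.28 for *Drgx*, −0.07 ± 0.24 for *Eya2* and −0.18 ± 0.35 for *Avil*. None of the 5 members tested passed the threshold of the study, which 3.08% of 16768 genes passed. Their limma adjusted p ran from 0.476 for *Pou4f2* to 0.926 for *Drgx*. In none of the 5 did the genotypes stand apart, which they did in 20.1% of all genes. The median of the 5 was 0.06, against −0.01 over all genes. The 95% intervals reached from −0.17 to 0.75 for *Pou4f2*, from −0.63 to 0.50 for *Eya2* and from −0.59 to 0.72 for *Drgx*. They were wider for *Avil*, from −0.996 to 0.63, and *P2rx3*, from −0.40 to 1.13. With 3 libraries a group, differences anywhere within these intervals remained compatible with the data.

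At the lumbar level the KO minus Het difference was 0.44 ± 0.31 for *P2rx3*, 0.25 ± 0.27 for *Eya2*, 0.01 ± 0.43 for *Drgx* and −0.09 ± 0.17 for *Pou4f2*. *Avil*, at a lumbar mean of 0.428 TPM, fell below the filter, and its KO and Het values overlapped. None of the 4 members tested passed the threshold, which 1.77% of 16620 genes passed, and all 4 had a limma adjusted p of 0.999. No member stood apart between genotypes, whereas 9.94% of all genes did. The median of the 4 was 0.13, against −0.01 over all genes. The interval was widest for *Drgx*, from −0.99 to 1.01, and narrowest for *Pou4f2*, from −0.48 to 0.30.

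The KO effect was also compared between levels in all 12 libraries. The difference of the effects, lumbar minus brachial, lay between −0.38 for *Pou4f2* and 0.32 for *Eya2*, with limma adjusted p from 0.812 to 0.988, and no member passed an adjusted p of 0.05. Of 16698 genes 0 did (0%), with 738 at an unadjusted p under 0.05.

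Lumbar and brachial libraries were compared over both genotypes. The labels do not tie libraries to embryos, and the fit took as independent brachial and lumbar libraries that may share an animal. By embryo sex the 3 lumbar Het libraries cannot all come from the embryos of the 3 brachial Het ones, whereas the KO libraries could. The log2 difference of lumbar from brachial libraries was 0.38 ± 0.14 for *Pou4f2*, with a 95% interval from 0.07 to 0.69, an unadjusted p of 0.0195 and a limma adjusted p of 0.0827. For *Drgx* it was −0.68 ± 0.28, with an interval from −1.28 to −0.07, an unadjusted p of 0.0319 and a limma adjusted p of 0.115. *P2rx3* differed by 0.34 ± 0.20, *Avil*, which passed the filter through its brachial values, by −0.42 ± 0.24 and *Eya2* by −0.20 ± 0.20, with limma adjusted p of 0.257, 0.257 and 0.537. None of the 5 passed an adjusted p of 0.05, which 18.5% of all genes did, and in none did the levels stand apart, against 8.31% of all genes. The members did not share a direction, with 2 higher and 3 lower estimates, and their median was −0.20, against 0.01 over all genes. *Avil* is among the 3 lower ones and, given how it passed the filter, is no support for this median. In the fits without brachial Het 2 or without brachial KO 2, where *Avil* was not tested, the median was 0.099 and 0.046. The call for *Pou4f2* turned on single libraries, since its limma adjusted p was 0.0131 without brachial KO 3 (log2 difference 0.49) and 0.0408 without lumbar KO 2 (0.46), and ranged from 0.0131 to 0.635 over its 24 alternatives.

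**Figure D3:**
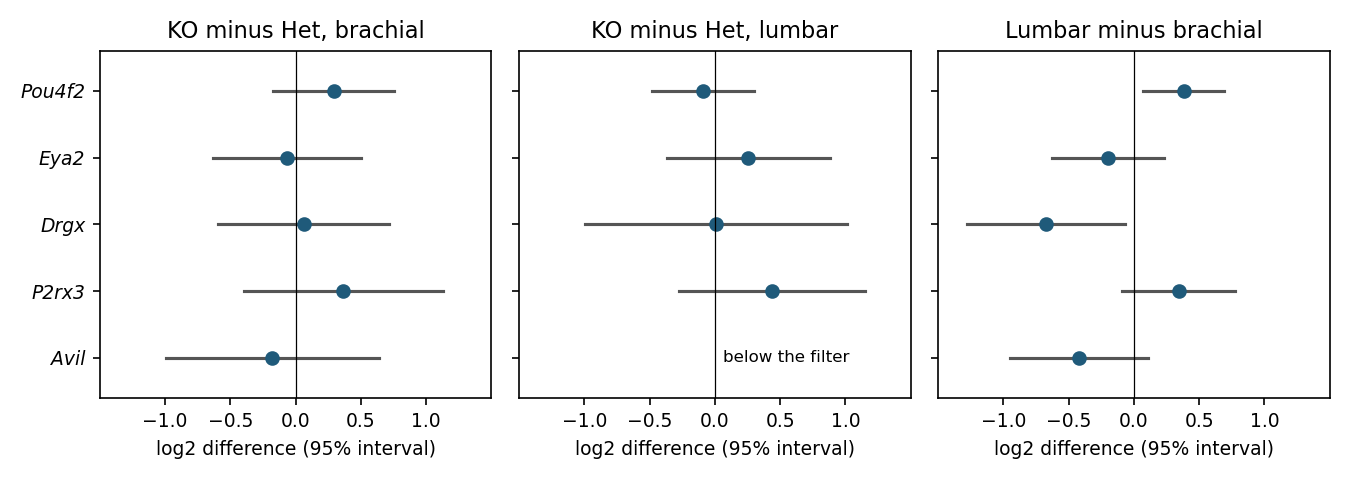
Log2 differences of the members (points) with 95% intervals (lines) for KO minus Het at the brachial and the lumbar level and for lumbar minus brachial. Every interval within a level crosses 0, and those of *Pou4f2* and *Drgx* between levels do not, although neither passed after adjustment over all genes.

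Genes of the wider ganglion list did differ between levels, in both directions. Of its 19 genes tested beyond the members, 5 fell and 4 rose from brachial to lumbar at a limma adjusted p under 0.05, which 18.5% of all genes passed. Among these, *Pou4f3* and *Pirt* passed the filter at a mean of 0.5 TPM only through the level where they were high, so their tests are no support, and with the filter at 0.1 TPM *Runx1* and *Trpa1* joined those that fell, also through the level where they were high. *Calca*, which encodes the peptide CGRP of sensory neurons and MNs, fell by 1.58, from 3.04 to 0.967 TPM (limma adjusted p = 0.00182). *Piezo2*, the mechanosensitive channel of touch and proprioception, fell by 1.12 (limma adjusted p = 0.00479). Each of these lost the call in 2 of 24 alternatives (limma adjusted p up to 0.0712 and 0.137). Of 8 MN genes 2 also fell between levels, *Slc5a7* by 1.10 and *Aldh1a2* by 0.49, and 0 rose. *Pirt*, a membrane regulator of sensory channels, averaged 0.777 TPM in brachial and 0.361 in lumbar libraries. *Ntrk2*, the receptor of the neurotrophin BDNF, fell by 0.42 and *Fxyd7*, a regulator of the sodium pump, by 0.43, although *Fxyd7* lost the call in 8 of 24 alternatives (limma adjusted p up to 0.251). *Pou4f3*, the close relative of *Pou4f2*, averaged 0.143 TPM in brachial and 1.24 in lumbar libraries. The size of its log2 difference, 2.51, depends on the pseudocount, at 3.44 with 0.01 and 0.96 with 1. The other genes that rose, outside the naming rule and named after their values were seen, were *Neurog1* by 0.91, *Six4* by 0.46 and *Shox2* by 0.33, and they lost the call in 13, 11 and 15 of 24 alternatives. *Runx1*, the relative of *Runx3* in nociceptors, ranged from 0.487 to 1.29 TPM in brachial and from 0 to 0.103 in lumbar libraries, and missed the filter by its mean over 12 libraries of 0.479.

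Between genotypes, 3 of 19 further ganglion genes passed the study threshold at the brachial level, against 3.08% of all genes (371 of the 517 being higher), all higher in KO libraries and all outside the naming rule. They were *Prdm12* by 0.96, *Neurog1* by 0.62 and *Ntrk3* by 0.54, each with a limma adjusted p of 0.357. Each lost the call in 6 to 10 of 17 alternatives, *Prdm12* at a difference of 0.52 and a p of 0.148 without brachial KO 3, the brachial library highest in *Pou4f2*. The same library had the fewest aligned bases of the 12 (4.48 Gb) and was the highest brachial library for 6 of 6 blood genes, which summed to 5904 TPM in it and to 1935 to 4251 TPM elsewhere, and the part of either in the values of *Pou4f2* and *Prdm12* was not tested. At the lumbar level 0 of 18 passed by limma, against 1.77% of all genes, with 2 at an unadjusted p under 0.05. In the other lists, *S100b* of Schwann cells and glia was lower in lumbar KO libraries by 0.85 on the log2 scale. There *Ptf1a* of dorsal inhibitory neurons was higher by 0.81 and the blood gene *Hba-x* by 0.69. All passed the threshold, each at a limma adjusted p of 0.999. *S100b* passed the filter through its Het values (0.729 to 0.934 TPM, against 0.328 to 0.666 in KO libraries), so its test is no support. *S100b* lost the call in 7 of 17 alternatives, *Hba-x* in 8 and *Ptf1a* in 1. All 6 blood genes had higher KO estimates at both levels, with a median log2 difference of 0.49 (brachial) and 0.58 (lumbar).

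Libraries high in *Drgx* were compared with those high in dorsal cord genes, because *Drgx* is made in both tissues. Brachial KO 1, the highest brachial library in *Drgx*, was also the highest for 8 of 16 dorsal interneuron and progenitor genes, and 14 of the 16 exceeded their value in brachial Het 3, the lowest in *Drgx*. It was the highest for 4 of 28 further ganglion genes and 1 of 13 Schwann and crest genes above 0, and exceeded Het 3 for 17 of the 28 and 10 of the 13. Het 3 was in turn the lowest brachial library for 13 of the 28 ganglion genes, 7 of the 13 Schwann and crest genes and 4 of the 16 dorsal genes. At the lumbar level KO 3, the highest in *Drgx* and in *Eya2*, was the highest for 10 of 16 dorsal genes. Of the 16, 15 exceeded their value in Het 3, the lowest lumbar library in *Drgx*, *Eya2*, *Avil* and *P2rx3*. Lumbar KO 3 was the highest for 4 of 26 further ganglion genes and 2 of 13 Schwann and crest genes. It exceeded Het 3 for 8 of the 26, 4 of the 13 and 0 of 8 MN genes. Lumbar Het 2, the highest in *Avil*, also exceeded Het 3 for 15 of the 16 dorsal genes, and lumbar KO 2, the highest in *P2rx3*, for 8. At the brachial level the highest library in *Avil* exceeded the lowest for 7 of the 16, and that in *P2rx3* for 4. Shares over all genes were not counted for such comparisons. Lumbar Het 3 was the lowest for 6 of 26 ganglion, 4 of 13 Schwann and crest and 6 of 16 dorsal genes. The 16 dorsal genes summed to 66.8 to 92.7 TPM in brachial Het, 67.0 to 102 in brachial KO, 69.8 to 92.7 in lumbar Het and 72.6 to 109 in lumbar KO libraries, and none of them was at 0 throughout. Between levels, where 18.5% of all genes passed, 2 of 15 dorsal genes tested rose and 2 fell, and 2 of 10 Schwann and crest genes fell, *Fabp7* by 0.40 (limma adjusted p = 0.0182) and *Erbb3*, which passed the filter only through its brachial values, from 1.56 to 0.405 TPM. The part of dorsal cord or of ganglion in the spread of *Drgx* was not tested.

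**Figure D4:**
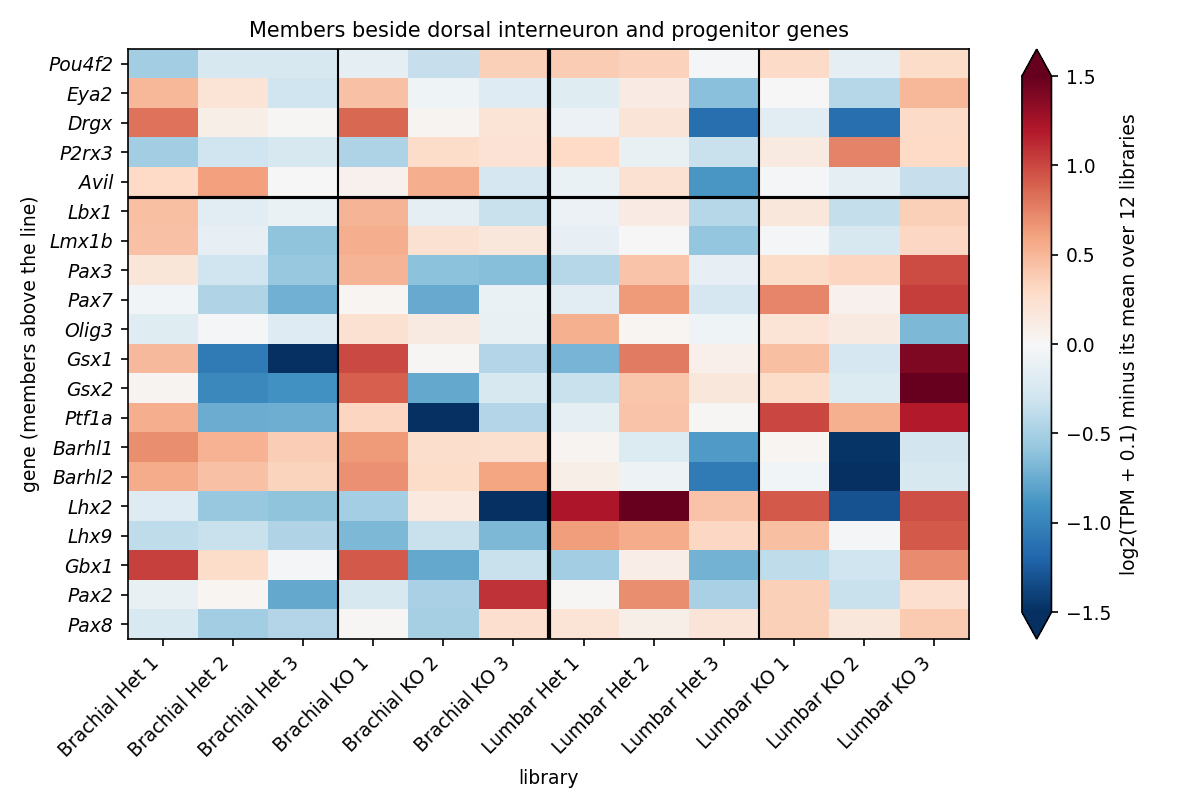
Deviation of log2(TPM + 0.1) from its mean over 12 libraries, as colour, for the 5 members above 0 and, below the line, the dorsal interneuron and progenitor genes with a mean of at least 0.5 TPM. Columns are libraries, and the thick vertical line separates the levels. Brachial Het 1 and KO 1 and lumbar KO 3 are high in *Drgx* and *Eya2* and in several dorsal genes, whereas *P2rx3* and *Avil* are highest in other libraries. Lumbar Het 3 is the lowest lumbar library for *Drgx*, *Eya2*, *Avil* and *P2rx3*.

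The members did not vary as one block. Over 20 pairs, 10 within the 6 libraries of each level, *Eya2* and *Drgx* gave Pearson's r of 0.85 at the brachial level (exact permutation p = 0.0431, Spearman's rho 0.77, p = 0.103) and 0.91 at the lumbar level (p = 0.00417, rho 0.94, p = 0.0167). Without the 2 libraries farthest from the median of *Eya2*, r was 0.74 and 0.91. Lumbar *Pou4f2* and *Drgx* gave an r of 0.92 (exact permutation p = 0.0472, rho 0.54, p = 0.297), but −0.27 without the 2 libraries farthest in *Pou4f2*, so the relation rests on those libraries. The same pair gave −0.22 at the brachial level and 0.80 without 2 libraries. Brachial *P2rx3* ran opposite to *Eya2* (r = −0.72, and −0.91 without 2 libraries) and to *Drgx* (−0.67 and −0.97), with exact permutation p of 0.132 and 0.111 for the 6 libraries. After Benjamini-Hochberg adjustment 0 of 20 pairs passed by either measure, with the smallest adjusted p at 0.0833 for r in lumbar *Eya2* and *Drgx* and 0.333 for rho, by which no single pair of 6 libraries could have passed. *Avil* and *P2rx3*, the members made by few other neurons, gave r of −0.09 and 0.34, with exact permutation p of 0.842 and 0.510.

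The genes whose log2 values were most like the mean of the members over 12 libraries, among 16698, were 9230116N13Rik (r = 0.92), *Pknox2* (0.91), *Dscaml1* (0.88), Gm32960 (0.88), *F3* (0.87), 1700039M10Rik (0.87), *Garem2* (0.87), *Tfap2b* (0.87), Gm29666 (0.86) and Gm51736 (0.85). After the 4 group means were taken off, the order was *Dscaml1* (0.95), *Pknox2* (0.94), *Spp1* (0.93), LOC108169009 (0.93), *Tmem121b* (0.93), *Cav1* (0.93), *Fzd4* (0.93), 9230116N13Rik (0.93), A630034I12Rik (0.93) and *Car4* (0.92). Both orders held 3 genes in common, 9230116N13Rik, *Pknox2* and *Dscaml1*. The correlations are descriptions over 12 libraries that share preparation and scaling, drawn from the top of a long list. *Tfap2b*, a factor of neural crest and of dorsal interneurons, ranged from 3.84 to 16.3 TPM, with its lowest value in lumbar Het 3, where *Drgx*, *Eya2* and *Avil* were also lowest.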

How the data were processed

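Total RNA of E12.5 spinal cord was sequenced from Ribo-Zero TruSeq Stranded libraries. Per the labels, the submitters' processing notes name FastQC 0.11.7, Trimmomatic 0.38, HISAT2 2.1.0, Bowtie2 2.3.4.1 and StringTie 2.1.3b with the build mm10. The authors deposited TPM, FPKM and mean per-base coverage per gene from StringTie, without counts, so the DESeq2 test of the study was not run. The strand setting is not given in the sources used here.

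Deposited TPM was divided by median-of-ratios size factors (0.896 to 1.25), which were used because small RNAs took 23.7% to 38.2% of TPM. Read depth per base was FPKM times the constant ratio of deposited coverage to FPKM, since the coverage of genes with several transcripts is not comparable between genes. Symbols and spans came from RefSeq (GRCm38.p6), which named 45679 of 45777 identifiers, and 6 identifiers on more than 1 line were summed. *P2rx3* shares 11 bases with Prg3 and *Eya2* 3960 with Gm29993, both at or near 0.

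Limma 3.58.1 in R 4.3.3 (lmFit, eBayes with a trend) was fitted to log2(TPM + 0.1) of genes averaging 0.5 TPM or more, for KO minus Het in the 6 libraries of a level and for lumbar minus brachial, with genotype as a term, and the difference of effects in all 12. P-values were adjusted over all genes by Benjamini-Hochberg. The code was tested on simulated data. Pairs used an exact two-sided permutation test over 720 pairings. Python 3.11.15, pandas 2.3.3 and matplotlib 3.10.9 were used.

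Members and lists were chosen with earlier results of these data known. The naming rule took the members, genes of a list that passed a test (at most 6 of smallest p a list) or otherwise its 3 highest, genes at 0 throughout, and the 10 genes most like the members in each of 2 measures. Alternatives were pseudocounts of 0.01 and 1, no filter or one at 0.1, deposited TPM, quantile normalization, protein-coding size factors, coverage, no trend, a replicate block, all libraries in one fit, 1 genotype alone, and leaving out each library. For pairs, 3 were chosen after seeing the data. Counting error of single libraries is unknown. Some items are not reported here.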

Additional observations from a re-analysis of the deposited data

How the results depend on the processing

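No member passed a threshold in a KO minus Het comparison, or in the difference of effects, under any alternative, and the count between levels was 0 to 1 when single libraries were left out. Leaving out a library gave medians of the members from −0.15 to 0.23 (brachial KO minus Het), −0.082 to 0.34 (lumbar) and −0.32 to 0.10 (lumbar minus brachial), and the last was 0.077 in KO libraries alone. *Avil* could not be tested in KO libraries alone, nor without brachial Het 2 (0.099) or brachial KO 2 (0.046), so these 3 medians are of 4 members. Signs of small differences turned. In the brachial comparison, leaving out a library gave −0.29 to 0.11 for *Eya2*, −0.19 to 0.32 for *Drgx* and −0.39 to 0.0042 for *Avil*, with 0.11 for *Eya2* in deposited TPM and −0.028 for *Drgx* in coverage. In the lumbar one it gave −0.38 to 0.41 for *Drgx* and −0.22 to 0.049 for *Pou4f2*. For the difference of effects it gave −0.45 to 0.35 for *Drgx*, −0.16 to 0.25 for *P2rx3* and −0.054 to 0.50 for *Avil*, with −0.079 for *P2rx3* in deposited TPM and 0.053 for *Drgx* in coverage. The cause was not tested. The 2 lists of genes most like the members shared 3 of 10 genes once group means were taken off.

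Equal replicate numbers were not taken to pair the libraries. Correlations of their deviations from the group means were between −0.21 and 0.34, and 3 of 6 equal numbers across levels differed in embryo sex. Brachial Het and KO libraries of equal number shared embryo sex in all 3 pairs, with correlations of 0.0096 to 0.23, and there the block lowered the SE from 0.28 to 0.13 for *Drgx* and from 0.24 to 0.13 for *Eya2*, so a shared origin of these pairs was not settled. Between levels, with the replicate block, *Drgx* had a limma adjusted p of 0.0580 and *Pou4f2* of 0.0786, and no member gained a call.

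Deposited TPM moved the median of all genes to 0.16 (brachial KO minus Het) and to −0.13 (lumbar minus brachial), and the share of higher genes among those called from 71.8% to 96.3% and from 48.1% to 22.6%. Quantile normalization gave 57.2% higher in the brachial comparison. Genes past the threshold numbered 517 in the brachial comparison, 341 with a pseudocount of 1, 793 without a filter, 1258 in deposited TPM and 278 to 1382 without single libraries. The lumbar count of 295 was 179 with a pseudocount of 1, 511 with the filter at 0.1, 620 without one, and up to 451 without a library. Between levels 3095 became 488 in Het and 298 in KO libraries alone and 2061 to 3556 without a library. Read depth per base was lower for *Avil* and *P2rx3* (4.02 at most) than for *Drgx*, *Eya2* and *Pou4f2* (5.52 at least).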
